A study of Mus musculus with 9 samples.

Results

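The inhibitory and Fc receptors of B cells were examined as 10 genes of the 29995 listed without immunoglobulin (Ig) genes, namely Cd22, Siglecg, Cd72, Fcgr2b, Fcer2a, Fcrla, Fcrl1, Fcrl5, Ptpn6 and Ptprc. The genes were taken by name from a list, with no threshold on a measured value. The list holds receptors that bind sialic acid or the Fc part of antibodies, the C-type lectin receptor gene Cd72, Fc receptor-like genes and phosphatases. All 10 were listed, and all 10 passed the filter on low values (TPM, abundance per transcript length at a fixed library total, of at least 1 in at least 3 libraries) that 12892 genes passed. RNA was sequenced from 3 groups of spleen cells sorted from B6.Blimp1+/GFP mice, 12 weeks old, 4 days after intraperitoneal injection of 50 µg NP-LPS, an antigen in which the hapten NP is coupled to lipopolysaccharide. In this strain 1 allele of Prdm1, the gene of the plasma cell regulator Blimp1, carries GFP, so that every group had 1 reporter allele and every group came from immunized mice. Naive B cells (naive cells below) were sorted as IgD high, B220+ and NP-. NP-specific B cells (NP+ B cells below) were sorted as NP+ and B220+ cells without IgD, GFP or CD138. Plasma cells (PCs) were sorted as NP+, GFP+ and CD138+ cells without IgD, with B220 either present or absent. Each group had 3 libraries, no unimmunized mice were among them, and the PCs were recent ones of the spleen.

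A B cell that binds antigen signals through its antigen receptor, and inhibitory receptors on the same cell set how strong that signal becomes. Most of these receptors carry tyrosine motifs (ITIMs) in their cytoplasmic tails that are phosphorylated by the kinase Lyn and then recruit a phosphatase. CD22, Siglec-G and CD72 recruit mainly the tyrosine phosphatase SHP-1, the product of Ptpn6, whereas the IgG receptor FcγRIIB, the product of Fcgr2b, recruits mainly the lipid phosphatase SHIP-1, the product of Inpp5d. CD45, the product of Ptprc, acts earlier, by removing the inhibitory phosphate of Src family kinases. Fcer2a encodes CD23, the low-affinity IgE receptor of follicular B cells. The Fc receptor-like genes encode relatives of the Fc receptors, some of which carry activating or inhibitory tyrosine motifs, and FCRLA, the product of Fcrla, is an intracellular protein of B cells.

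Of the 10 genes, 4 lie in 2 pairs of neighbours (GRCm38). Fcrla (chr1:170917576-170927583, minus strand) and Fcgr2b (chr1:170958617-170976547, minus strand) are separated by 31033 bases. Fcrl1 (chr3:87376387-87402934, plus strand) and Fcrl5 (chr3:87435773-87500678, plus strand) are separated by 32838 bases. The other 6 are Cd22 (chr7:30865402-30880342, minus strand), Siglecg (chr7:43408204-43418358, plus strand), Cd72 (chr4:43446462-43454628, minus strand), Fcer2a (chr8:3681737-3694175, minus strand), Ptpn6 (chr6:124720707-124738714, minus strand) and Ptprc (chr1:138062861-138175708, minus strand), and all 10 are protein-coding. In NP+ B cells against naive cells, the 95% intervals of the log2 change did not overlap within either pair (-0.16 to 0.24 for Fcrla and 0.97 to 1.35 for Fcgr2b, and -0.93 to -0.56 for Fcrl1 and 1.73 to 2.46 for Fcrl5). Upstream sequences were read for all 10 genes, as the 250 bases before each RefSeq transcript start (GRCm38.p6). The letters GGAAGT, the core of sites for ETS factors, were found on either strand in 8 of the 14 windows of these genes (7 genes) and in 19.7% of 32851 windows of all genes. CAGGTG, an E-box, was found in 4 of the 14 windows (4 genes) against 17.2% of all windows. GAAAGT was found in 1 of the 14 windows against 12.3%, and the octamer ATGCAAAT was found in 0 of the 14 against 1.6%. These letters were chosen after the values of the genes had been seen, the windows of 1 gene can overlap, and a match does not show a site in use. The windows of 3 genes are printed, because Fcrl1 and Fcrl5 are neighbours whose transcripts differed in direction in NP+ B cells and because Fcrla was the most abundant of the 10 in PCs. They are chr3:87376137-87376386 (plus strand), chr3:87435532-87435781 (plus strand) and chr1:170927584-170927833 (minus strand). Each runs 5′ to 3′ towards the transcript start, with matches of the searched letters in capitals, so that ACTTCC is GGAAGT and ACTTTC is GAAAGT on the opposite strand.
Fcrl1: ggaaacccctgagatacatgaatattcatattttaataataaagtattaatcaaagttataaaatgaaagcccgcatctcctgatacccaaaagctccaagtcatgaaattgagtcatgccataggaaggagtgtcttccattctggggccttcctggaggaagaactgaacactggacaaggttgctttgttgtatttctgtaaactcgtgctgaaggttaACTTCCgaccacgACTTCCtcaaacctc
Fcrl5: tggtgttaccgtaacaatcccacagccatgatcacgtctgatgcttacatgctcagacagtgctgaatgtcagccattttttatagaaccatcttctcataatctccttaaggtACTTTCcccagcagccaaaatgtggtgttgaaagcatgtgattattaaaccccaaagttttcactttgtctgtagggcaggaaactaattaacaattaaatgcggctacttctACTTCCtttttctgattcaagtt
Fcrla: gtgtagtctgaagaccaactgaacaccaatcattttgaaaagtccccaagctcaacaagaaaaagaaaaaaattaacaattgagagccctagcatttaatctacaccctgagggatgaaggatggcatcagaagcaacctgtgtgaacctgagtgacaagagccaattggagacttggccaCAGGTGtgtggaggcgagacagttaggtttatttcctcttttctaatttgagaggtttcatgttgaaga
Fcrl1 and Fcrl5 each held GGAAGT on the opposite strand close to the start, at 28 and 15 bases before it in Fcrl1 and at 23 bases in Fcrl5. Fcrla held CAGGTG at 69 bases before the start and no GGAAGT.

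The labels were first checked against marker genes. Ighd, in the table that includes Ig genes, was at 2801 to 2904 TPM in naive cells, 37.8 to 42.5 in NP+ B cells and 0.346 to 1.26 in PCs. The plasma cell genes Prdm1, Xbp1, Sdc1 and Tnfrsf17 were each higher in every PC library than in every other library, with Xbp1 at 3717 to 4564 TPM in PCs against 111 to 168 elsewhere. The 6 listed B cell markers summed to 7852 to 8209 TPM in naive cells, 5958 to 6452 in NP+ B cells and 1499 to 1571 in PCs. Plasma cell replicate 3 stood apart, since 6 hepatocyte markers summed to 4613 TPM there and to 22.8 and 26.5 in the other PC libraries. The same library held C1qa, C1qb and C1qc, genes of macrophages, at 7.24, 15.9 and 12.6 TPM, while all other libraries were at or under 1.18. For the members, the log2 change in PCs against naive cells is therefore also given without it, while levels, sums and shares include it unless stated. A naive library held 28490300 to 31719400 estimated reads without Ig genes, an NP+ B cell library 34918400 to 38602300 and a PC library 20189900 to 22137400. The design text has the 3 cell types coming from 3 mice, so that libraries of different groups can share a mouse, but the labels do not say that a replicate number marks a mouse. The groups were therefore compared without pairing, and with the replicate number as a block the call of each of the 10 genes was the same in all 3 comparisons. As these are bulk samples, fewer cells of a type and less RNA per cell cannot be told apart.

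NP+ B cells were compared with naive cells to ask what antigen-binding cells had changed without entering the plasma cell state. Transcripts of 2 of the 10 genes rose (Fcrl5 and Fcgr2b), those of 1 fell (Fcer2a), and the other 7 did not pass the test. A gene was counted as changed with a Benjamini-Hochberg adjusted p under 0.05 in limma and a fold change over 2, and 18.5% of all 12892 genes tested passed (8.13% higher, 10.4% lower). By adjusted p alone, 2 of the 10 genes were higher and 4 lower, where 42.1% of all genes passed (18.6% higher, 23.5% lower). The 3 libraries of a group all lay above the other 3 for 2 genes and all below for 5, where 55.9% of all genes had groups that did not overlap (23.6% above, 32.4% below). The median log2 change of the 10 genes was -0.27, against -0.16 over all genes tested.

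PCs were compared with both kinds of B cell. Against naive cells, 8 of the 10 genes fell and 0 rose, where 37.8% of all genes passed (11.4% higher, 26.3% lower). Fcgr2b and Fcrla were the 2 that did not pass. Against NP+ B cells, 9 of the 10 fell and 0 rose, where 32.2% of all genes passed (9.93% higher, 22.3% lower), and Fcrla was the gene that did not pass. All 10 genes had lower values in every PC library than in every library of either B cell group, where 48.7% of all genes tested lay below naive cells in this way and 40.9% lay below NP+ B cells. The median log2 change of the 10 genes was -3.85 against naive cells and -3.53 against NP+ B cells, and the medians over all genes tested were -0.47 and -0.30. Both comparisons use the same PC libraries, and the naive and NP+ B cell libraries are each used in 2 comparisons. Without PC replicate 3 the counts were again 8 and 9.

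**Figure D1:**
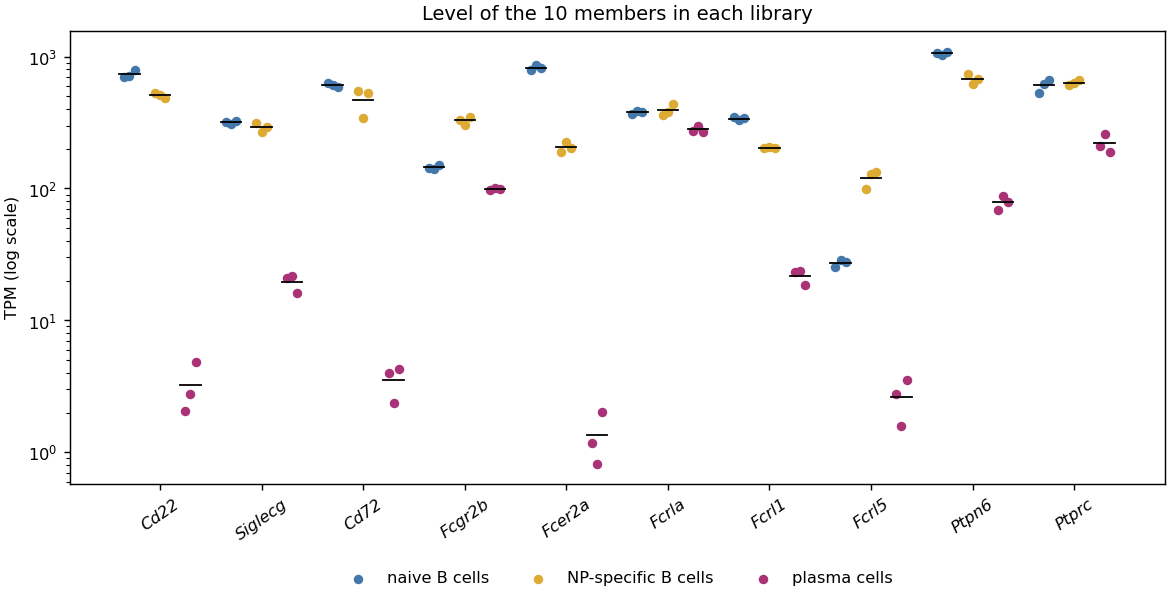
Level of each of the 10 genes in each library, in TPM of the table without Ig genes on a log axis. Points are libraries (3 per group, coloured by group) and bars are group means. In PCs, Cd22, Cd72, Fcer2a and Fcrl5 lay between 0.823 and 4.83 TPM, whereas Fcrla lay between 268 and 298.

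Cd22 encodes an inhibitory receptor that binds α2,6-linked sialic acid on the same or neighbouring cells. It was at 695, 714 and 788 TPM in the naive libraries, at 528, 514 and 485 in the NP+ B cell libraries and at 2.05, 2.80 and 4.83 in the PC libraries. The 3 groups did not overlap, and the highest of the PC values was that of replicate 3. NP+ B cells differed from naive cells by a log2 change of -0.53 ± 0.10 (SE, adjusted p = 0.00186), short of the 2-fold threshold. In PCs the transcript fell by 7.69 ± 0.23 on the log2 scale against naive cells (adjusted p = 7.38e-10), to 0.441% of the naive mean. Only 0.0621% of the genes tested had a lower change. Without PC replicate 3 the change was -7.98. The PC values rest on 98 to 229 estimated reads, so the transcript was still detected above the floor of 3 reads (0.0632 TPM).

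Siglecg, whose product is a sialic acid receptor best known for restraining B-1 cells, fell less far. Its values were 321, 308 and 324 TPM in naive cells, 315, 268 and 291 in NP+ B cells and 21.1, 21.8 and 16.1 in PCs. Naive and NP+ B cell libraries overlapped, and their difference was -0.14 on the log2 scale (95% interval -0.35 to 0.08, adjusted p = 0.275). Against naive cells the PC change was -4.00 ± 0.13 (adjusted p = 1.92e-09), which left 6.20% of the naive mean, and the change without PC replicate 3 was -3.86. The intervals of the PC change did not overlap between Cd22 (-8.19 to -7.19) and Siglecg (-4.29 to -3.70).

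Cd72 encodes a C-type lectin inhibitory receptor that binds CD100, the product of Sema4d. It was at 630, 608 and 586 TPM in naive cells, at 548, 342 and 527 in NP+ B cells and at 3.99, 2.38 and 4.30 in PCs. Replicate 2 of the NP+ B cells was lower than the other libraries of its group, and it also held the neutrophil genes S100a8 and S100a9 at 24.7 and 23.9 TPM, against at most 0.228 in the other NP+ B cell libraries. The part of that in the value of Cd72 was not tested. The difference from naive cells was -0.40 (95% interval -0.75 to -0.06, adjusted p = 0.0589) and was -0.19 without that library. In PCs the transcript fell by 7.27 ± 0.34 on the log2 scale (adjusted p = 2.05e-08), to 0.585% of the naive mean, on 52 to 91 estimated reads per PC library. Leaving out PC replicate 3 gave -7.41.

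Fcgr2b, the inhibitory IgG receptor, rose in NP+ B cells. The naive libraries held 143, 141 and 152 TPM, the NP+ B cell libraries 332, 301 and 349, and the PC libraries 97.5, 101 and 99.1. The 3 groups did not overlap, and PC replicate 3 lay between the other PC libraries. The change in NP+ B cells was 1.16 ± 0.09 (adjusted p = 5.27e-06), and 7.25% of the genes tested had a higher change. With quantile normalization the change was 0.99, just short of the 2-fold threshold. PCs differed from naive cells by a log2 change of -0.55 ± 0.09 (adjusted p = 0.000411), short of 2-fold, and 46.7% of the genes tested had a lower change. With median-of-ratios scaling that change was -0.06 (adjusted p = 0.626). Against NP+ B cells the transcript fell by 1.71 ± 0.09 (adjusted p = 6.61e-08). Without PC replicate 3 these changes were -0.55 and -1.71. The values in PCs are relative to all RNA other than Ig, and on the scale that includes Ig genes the change against naive cells was -1.76, which passed the test.

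Fcgr2b is also expressed by macrophages, so their markers were set beside it. The gates of all 3 groups left out cells with F4-80, a macrophage protein, or with CD4, CD8a or Ter-119. The 10 listed macrophage and monocyte genes summed to 8.65 to 11.3 TPM in naive cells, 68.5 to 85.8 in NP+ B cells and 40.1, 49.3 and 128 in PCs. In NP+ B cells the sum was mostly Cd68 (45.0 to 67.6) and Itgam (12.3 to 16.0). In naive cells these were at 3.88 to 4.05 and 2.09 to 2.73. Csf1r was at 0.476 to 1.54 TPM in NP+ B cells, against 0.392 to 0.601 in naive cells. Lyz2 was at 0.886, 5.51 and 0.0305 in the NP+ B cell libraries, against 0.668 to 1.73 in naive cells. Cd14 was at 0 to 1.11 and Mertk at 0.0460 to 0.219, against 0.0531 to 0.972 and 0.282 to 0.547. C1qb was listed at 0 in all 3 NP+ B cell libraries, and C1qa and C1qc were at or under 0.0651 there. Fcgr3, an IgG receptor of myeloid cells, was at or under 1.24 TPM in all libraries but PC replicate 3, where it was at 3.25. Fcgr1, another such receptor, was at 0.707 TPM in PC replicate 3 and at or under 0.0530 in all other libraries. Fcgr4, a further IgG receptor of myeloid cells, was at 0.887 to 1.49 TPM in naive cells and at 2.52 to 6.56 in NP+ B cells, a rise of 1.56 on the log2 scale (adjusted p = 0.0112). The extracellular parts of Fcgr2b and Fcgr3 are nearly identical in sequence, so short reads from them can be split between both genes. The 6 listed dendritic cell genes summed to 8.63 to 9.23 TPM in naive cells, 23.4 to 26.2 in NP+ B cells and 13.0 to 17.5 in PCs. Most of that sum in NP+ B cells was Flt3, at 1.76 to 2.38 TPM in naive cells, 15.8 to 19.4 in NP+ B cells and 4.45 to 5.34 in PCs. Zbtb46 and Xcr1 were at 1.31 to 3.04 and 0.680 to 0.936 TPM in NP+ B cells, against 2.19 to 3.11 and 1.16 to 1.35 in naive cells. Itgax and Ccr9 were at 0.172 to 1.16 and 1.26 to 4.22 TPM in NP+ B cells, against 0.141 to 0.232 and 1.07 to 1.92 in naive cells. Siglech was at 0.570 to 1.73 TPM in NP+ B cells, against 1.02 to 1.88 in naive cells. The part of macrophage or dendritic cell RNA in the value of Fcgr2b was otherwise not tested.

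Fcer2a showed the largest fall of the 10 genes in each comparison with naive cells. It was at 796, 856 and 822 TPM in naive cells, at 189, 225 and 204 in NP+ B cells and at 1.19, 0.823 and 2.02 in PCs. Each group lay wholly below the one before it. The change in NP+ B cells was -2.01 ± 0.10 (adjusted p = 6.08e-07), which left 25.0% of the naive mean. In PCs the transcript fell by 8.86 ± 0.25 on the log2 scale (adjusted p = 7.11e-10), to 0.163% of the naive mean, and 0.0233% of the genes tested had a lower change. Without PC replicate 3, whose value was the highest of the PC libraries, the change was -9.11. The PC libraries held 33 to 79 estimated reads of this gene.

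CD23 is characteristic of follicular B cells and is low on marginal zone and B-1 cells, so genes of those cells were set beside Fcer2a. The 7 listed genes summed to 504 to 551 TPM in naive cells, 546 to 549 in NP+ B cells and 202 to 210 in PCs. In naive cells most of the sum was Cr2, and within the list the directions differed. Cr2, the complement receptor CD21, was at 303 to 350 TPM in naive cells and at 141 to 177 in NP+ B cells. S1pr3, a receptor that holds cells in the marginal zone, was at 10.1 to 12.2 TPM in naive cells and at 59.6 to 64.1 in NP+ B cells, and Cd9 was at 16.7 to 22.7 and at 48.7 to 50.0. Cd1d1 was at 73.3 to 76.7 and at 111 to 130, Spn at 3.11 to 4.91 and at 7.78 to 18.4, and Bhlhe41 at 5.45 to 17.2 and at 60.2 to 104. These 5 of the 7 genes were thus higher in every NP+ B cell library than in every naive library, Cr2 was lower in every one, and Dtx1 overlapped (69.1 to 93.9 and 55.8 to 72.8). Of all genes tested, 23.6% lay above and 32.4% below in this way. How far the make-up of the sorted cells bears on Fcer2a was not tested.

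Fcrla had the smallest log2 change of the 10 genes in each comparison, but not under every scaling. Its values were 370, 384 and 377 TPM in naive cells, 359, 381 and 433 in NP+ B cells and 274, 298 and 268 in PCs. Naive and NP+ B cell libraries overlapped, with a log2 difference of 0.04 (95% interval -0.16 to 0.24, adjusted p = 0.727), and its sign turned to -0.24 with quantile normalization, where Ptprc changed less (-0.11). The log2 change in PCs was -0.43 ± 0.09 against naive cells (adjusted p = 0.00176) and -0.48 ± 0.09 against NP+ B cells (adjusted p = 0.00107), both short of 2-fold. The first of these is close to the median of all genes tested, and 51.9% of genes had a lower change. With median-of-ratios scaling, which moves the median of all genes by 0.49 in that comparison, Fcrla was at 0.06. On the scale that includes Ig genes it was at -1.65 and passed the test. With quantile normalization it was at -0.73 in PCs against naive cells, a larger change than that of Fcgr2b (-0.54), and with median-of-ratios scaling Siglecg (-0.03) changed less than Fcrla (0.15) in NP+ B cells. Against NP+ B cells it was at -0.09 with median-of-ratios scaling (adjusted p = 0.502). Leaving out PC replicate 3 gave -0.40 against naive cells and -0.44 against NP+ B cells.

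Fcrl1 and Fcrl5, the neighbours on chromosome 3, differed from each other in NP+ B cells. Fcrl1, which encodes a receptor with activating motifs on mature B cells, was at 346, 329 and 340 TPM in naive cells, at 202, 205 and 202 in NP+ B cells and at 23.2, 23.9 and 18.5 in PCs. The difference in NP+ B cells was -0.74 ± 0.09 (adjusted p = 8.18e-05), short of 2-fold, and it passed 2-fold with quantile normalization (-1.07). In PCs it fell by 3.94 ± 0.11 on the log2 scale against naive cells (adjusted p = 7.37e-10), to 6.45% of the naive mean, and the change was -3.82 without PC replicate 3, its lowest library.

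Fcrl5, which encodes a receptor with both an activating and inhibitory motifs that is known from marginal zone and B-1 cells, was the lowest of the 10 genes in naive cells. Its naive libraries held 25.5, 28.8 and 27.8 TPM, and its NP+ B cell libraries held 98.3, 130 and 134. That is a log2 change of 2.10 ± 0.17 (adjusted p = 7.42e-06), to 440% of the naive mean, the largest rise of the 10. In PCs it was at 2.79, 1.57 and 3.56 TPM, on 68 to 148 estimated reads. The log2 change was -3.21 ± 0.29 against naive cells (adjusted p = 3.54e-06) and -5.31 ± 0.27 against NP+ B cells (adjusted p = 6.03e-08). Without PC replicate 3 these changes were -3.42 and -5.52. The listed marginal zone and B-1 genes are given beside Fcer2a, with 5 of 7 above naive cells in every NP+ B cell library (23.6% of all genes tested) and Cr2 below, and their part in the value of Fcrl5 was not tested. Fcrl5 was thus high in NP+ B cells and low on either side, and Fcgr2b had the same order of groups at higher levels.

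Ptpn6, the gene of SHP-1, had the highest mean of the 10 genes in both B cell groups. It was at 1071, 1021 and 1085 TPM in naive cells, at 741, 616 and 681 in NP+ B cells and at 68.7, 88.0 and 78.4 in PCs. The groups did not overlap. The change in NP+ B cells was -0.65 ± 0.09 (adjusted p = 0.000322), short of 2-fold. In PCs the transcript fell by 3.76 ± 0.11 on the log2 scale against naive cells (adjusted p = 7.37e-10), to 7.40% of the naive mean, and the value without PC replicate 3 was also -3.76.

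Ptprc, the gene of CD45, changed least of the 8 genes that fell in PCs. Its libraries held 530, 621 and 665 TPM in naive cells, 608, 625 and 665 in NP+ B cells and 211, 260 and 188 in PCs. The B cell groups overlapped, with a log2 difference of 0.06 (95% interval -0.20 to 0.32, adjusted p = 0.704) whose sign turned with quantile normalization (-0.11). In PCs the transcript fell by 1.47 ± 0.13 on the log2 scale (adjusted p = 2.26e-06), to 36.3% of the naive mean. The change was -1.37 without PC replicate 3 and -0.98 with median-of-ratios scaling, which is short of 2-fold. On the scale that includes Ig genes the change was -2.69. B220, an epitope of the long CD45 isoforms, was part of the sort, and B220 was required for both B cell groups but not for PCs. The tables give 1 value per gene and do not resolve isoforms, so the use of the B220 exons was not analysed here.

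**Figure D2:**
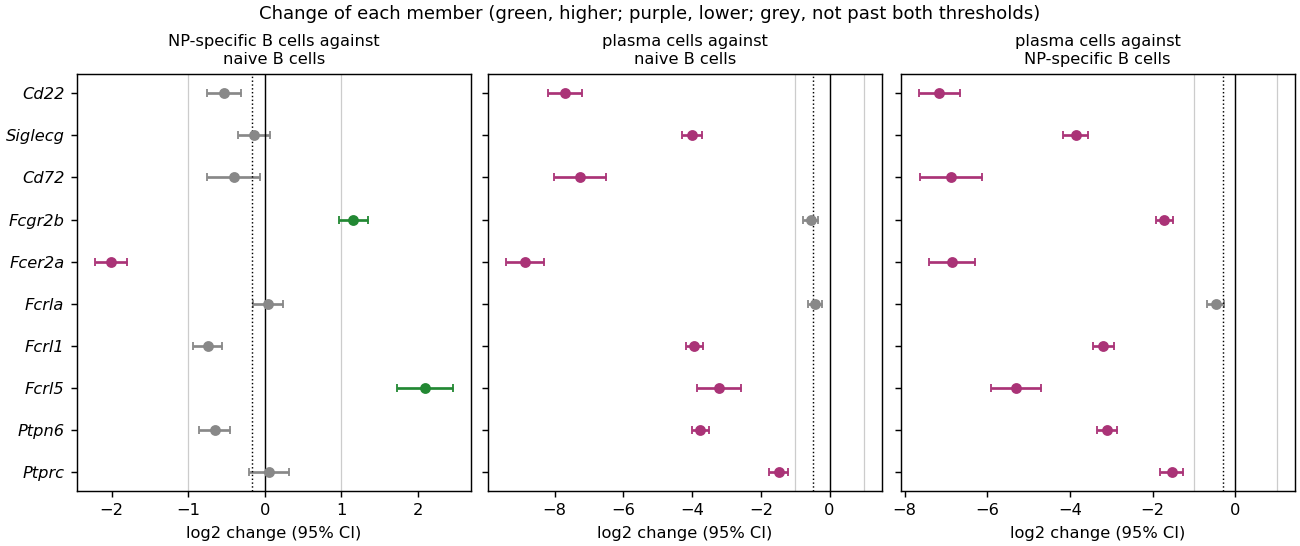
Change of each gene in the 3 comparisons, as log2 change with its 95% interval (limma, 9 libraries in one model). Grey lines mark 2-fold and the dotted line the median of all genes tested. Fcrl5 and Fcgr2b lie above 2-fold and Fcer2a below it in NP+ B cells, and in PCs all 10 points lie below 0, from -8.86 for Fcer2a to -0.43 for Fcrla against naive cells.

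Because TPM is per length, the levels of the 10 genes could also be ordered within a group. In naive cells the order of means was Ptpn6, Fcer2a, Cd22, Cd72, Ptprc, Fcrla, Fcrl1, Siglecg, Fcgr2b and Fcrl5. The libraries of neighbours in this order overlapped between Cd72 and Ptprc, and between no other neighbours. In NP+ B cells the order was Ptpn6, Ptprc, Cd22, Cd72, Fcrla, Fcgr2b, Siglecg, Fcer2a, Fcrl1 and Fcrl5. Here Ptpn6 overlapped with Ptprc, Cd72 with both Cd22 and Fcrla, Fcgr2b with Siglecg, and Fcer2a with Fcrl1. Fcer2a was thus the second of the 10 in naive cells and the eighth in NP+ B cells. In PCs the order was Fcrla, Ptprc, Fcgr2b, Ptpn6, Fcrl1, Siglecg, Cd72, Cd22, Fcrl5 and Fcer2a. The first 4 were separate from each other, Fcrl1 overlapped with Siglecg, and neighbours among the last 4 overlapped.

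The summed TPM of the 10 genes was 5035 ± 122 (SD, n = 3) in naive cells, 3833 ± 197 in NP+ B cells and 729 ± 62.2 in PCs. Fcrla made up 7.48% of this sum in naive cells, 10.2% in NP+ B cells and 38.5% in PCs. Ptprc went from 12.0% to 16.5% and 30.0%, and Fcgr2b from 2.88% to 8.54% and 13.6%. Fcer2a went the other way, from 16.4% to 5.41% and 0.189%. Cd22 went from 14.5% in naive cells to 0.449% in PCs, and Cd72 from 12.1% to 0.497%. Ptpn6 went from 21.0% to 17.7% and 10.7%. A share rises when others fall, so these shares describe the make-up of what remained and not changes of their own. Over PC replicates 1 and 2 alone the shares of Fcrla, Ptprc and Fcgr2b were 38.1%, 31.2% and 13.2%.

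**Figure D3:**
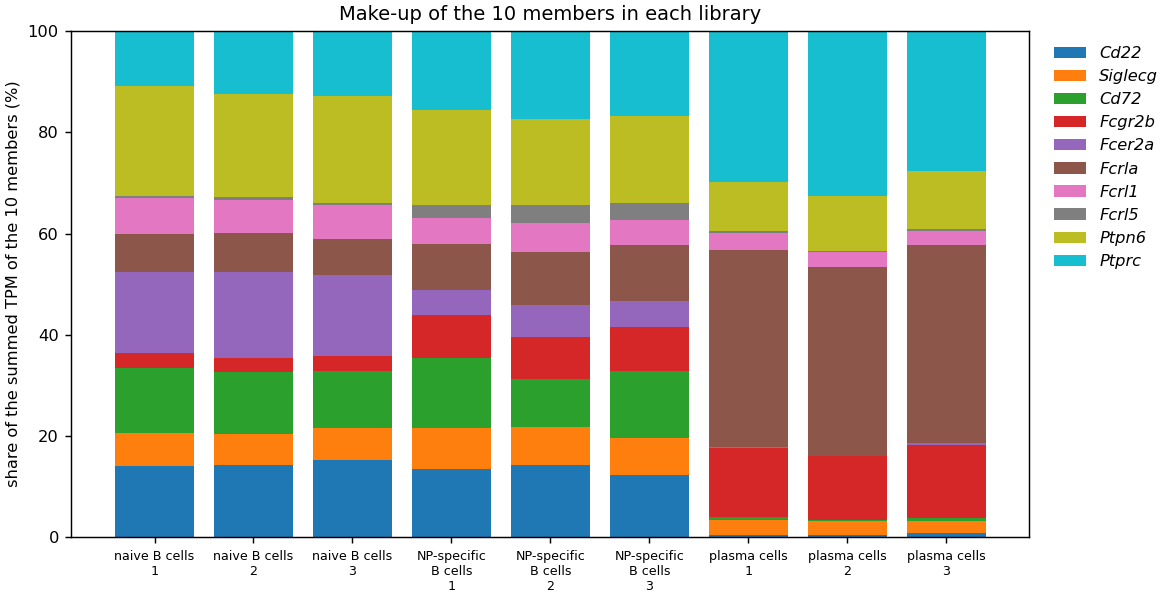
Make-up of the summed TPM of the 10 genes in each library, in percent, with one bar per library and one colour per gene. Libraries of a group look alike, and in all 3 PC bars Fcrla, Ptprc and Fcgr2b take most of the height (mean shares 38.5%, 30.0% and 13.6%).

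The genes whose pattern was most like that of each member were found by Pearson's r of log2(TPM + 0.5) over the 9 libraries, among 7249 genes with a mean TPM of at least 10. These 9 points fall into 3 groups, so r mainly follows the group means and is given as a description. Fcer2a was most like Cd79a, a chain of the antigen receptor (r = 0.9991), and H2-Aa, a chain of MHC class II (r = 0.9984). Cd22 was most like Kmo and Plcb2, Siglecg most like Susd3 and Grap, and Cd72 most like Ltb, the lymphotoxin β gene, and Serpinb1a. Fcrl1 was closest to Coro1a and Jakmip1, and Ptpn6 to Akna and Crtc2. For these 6 members r was at least 0.9981. Fcgr2b was most like Rgs13 (r = 0.9973), a regulator of G protein signalling that was at a mean of 1.96 TPM in naive cells, 72.8 in NP+ B cells and 0.117 in PCs, and next like 2700029M09Rik (r = 0.9944). Fcrl5 was most like Dph5 (r = 0.9955) and S100a10, and Ptprc most like Acss1 (r = 0.996) and Dock8. Fcrla had the lowest best match, Trmt112 at r = 0.9844, followed by Pdcd2.

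Related genes were taken from lists drawn up by function, and the sign of each list's median was the same under the other scalings tried. Their counts stand beside the shares of all genes tested that rose and fell, which were 8.13% and 10.4% in NP+ B cells, 11.4% and 26.3% in PCs against naive cells, and 9.93% and 22.3% in PCs against NP+ B cells, with medians of -0.16, -0.47 and -0.30. Leaving out PC replicate 3 kept the call of 41 of 46 listed genes in PCs against naive cells and of 43 of 46 against NP+ B cells. The genes through which these receptors act were described from a list of 14 inhibitory effectors, all tested. Of these, 2 rose and 3 fell in NP+ B cells (median log2 change -0.18). In PCs 2 rose and 9 fell against naive cells (median -2.05), and 2 rose and 9 fell against NP+ B cells (median -1.37). In the latter comparison the number that fell was 6 with median-of-ratios scaling (median -0.98) and 5 with quantile normalization (median -0.91). On the scale that includes Ig genes 1 rose and 12 fell there (median -2.43), and 1 rose and 11 fell against naive cells (median -3.02). Lyn, the kinase that phosphorylates ITIMs, was at 189 to 203 TPM in naive cells, 177 to 200 in NP+ B cells and 41.8 to 44.3 in PCs, a log2 change in PCs of -2.16 ± 0.10 (adjusted p = 1.79e-08). Inpp5d, the gene of SHIP-1, was at 297 to 301, 148 to 235 and 66.5 to 74.6 TPM, a log2 change in PCs of -2.09 ± 0.15 (adjusted p = 7.76e-07). These 2 genes are named for their roles, after their values had been seen. Among the largest changes, Grb2, an adaptor, was at 41.0, 26.3 and 51.4 TPM in naive cells and at 351, 139 and 307 in NP+ B cells, a rise of 2.67 ± 0.36 (adjusted p = 0.000235), and it fell by 4.73 from there to PCs (adjusted p = 1.19e-05). Ptpn22, a tyrosine phosphatase, rose by 1.68 ± 0.15 in NP+ B cells, and Pag1, an adaptor that binds the kinase Csk, fell by 1.32 ± 0.13. In PCs against naive cells the ubiquitin ligase gene Cblb fell by 3.00 ± 0.27, Pag1 fell by 2.74 ± 0.15 and the adaptor gene Dok3 fell by 2.64 ± 0.11. Lax1, an adaptor of lymphocytes, rose by 2.24 ± 0.12 in PCs against NP+ B cells, from 132 to 155 TPM to 586 to 784.

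Of 15 other inhibitory receptors listed, 10 were tested. Among them 3 rose and 1 fell in NP+ B cells (median 0.44), and in PCs 5 fell against naive cells (median -1.24) and 8 fell against NP+ B cells (median -2.33), with 0 rising in either, also at an unadjusted p under 0.05. Pirb, a receptor for MHC class I, was at 57.5 to 61.3 TPM in naive cells and 0.833 to 1.59 in PCs, a log2 change of -5.19. Its sequence is close to that of the Pira genes, so its reads can be split among them. Btla, the receptor for HVEM, fell in NP+ B cells by 1.38 (171 to 194 TPM in naive cells, 59.2 to 90.8 in NP+ B cells) and was at 4.54 to 7.31 in PCs. Ceacam1, an adhesion molecule with ITIMs, was at 36.0 to 42.4 TPM in naive cells, 59.8 to 65.5 in NP+ B cells and 1.31 to 2.14 in PCs (log2 change -4.89 against NP+ B cells). Cd300lf rose by 2.51 in NP+ B cells, from 11.0 to 14.2 TPM to 54.4 to 84.9, and fell to 7.11 to 8.57 in PCs. Lilrb4 rose by 1.42 in NP+ B cells at low levels (1.47 to 3.00 and 4.41 to 9.69 TPM). Cd300lf and Lilrb4 are also genes of myeloid cells, whose markers are given above beside Fcgr2b, and the part of such cells in these values was not tested. Without PC replicate 3, 9 of these receptors were tested, of which 6 fell against naive cells (median -1.93) and 7 fell against NP+ B cells (median -3.23). Against naive cells, 4 fell with median-of-ratios scaling (median -0.75) and 7 on the scale that includes Ig genes (median -1.67).

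Of 13 other genes of the Fc receptor family, 8 were tested. In NP+ B cells 1 rose and 3 fell (median -1.04), and in PCs 4 fell against naive cells (median -1.96) and 5 fell against NP+ B cells (median -1.90), with 0 rising in either, also at an unadjusted p under 0.05. Faim3, the gene of the IgM Fc receptor that is also called Fcmr, was more abundant in naive cells than any of the 10 members, at 1524, 1558 and 1548 TPM. It was at 159, 182 and 170 in NP+ B cells and at 8.70, 3.14 and 12.2 in PCs, changes of -3.19 ± 0.16 (adjusted p = 7.79e-07) and -7.69 against naive cells (adjusted p = 3.84e-09). As with Fcer2a, the groups did not overlap and the fall was already present in NP+ B cells. Fcgrt, the gene of the neonatal Fc receptor, was at 20.8 to 28.8 TPM in naive cells and was listed at 0 in PC replicates 1 and 2 and at 3.05 in replicate 3. Trim21, a cytosolic antibody receptor, was at 25.7 to 29.5 TPM in naive cells and 1.98 to 5.36 in PCs (log2 change -3.04). Fcgr4 and Fcamr, which passed in NP+ B cells at 1.56 and -1.40, were at low levels, with at most 6.56 and 4.02 TPM in any library.

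Of the 7 genes listed for ligands of these receptors and for sialic acid, all were tested. In NP+ B cells 2 rose and 1 fell (median -0.25), whereas in PCs 4 rose and 1 fell against naive cells (median 2.07) and 4 rose and 1 fell against NP+ B cells (median 1.50). St6gal1, Gne and Nans rose in PCs against both groups, Cmas against naive cells only and Siae against NP+ B cells only. On the scale that includes Ig genes, 2 rose and 2 fell in each of these comparisons (medians 0.85 and 0.45). St6gal1, the enzyme that adds the α2,6-linked sialic acid bound by CD22, was at 147 to 156 TPM in naive cells, 95.4 to 159 in NP+ B cells and 582 to 697 in PCs, a rise of 2.07 ± 0.15 against naive cells (adjusted p = 6.82e-07). Gne and Nans, enzymes of sialic acid synthesis, rose in PCs by 2.39 ± 0.15 and 3.16 ± 0.12 against naive cells, to 144 to 179 and 267 to 286 TPM. Nans had also risen in NP+ B cells, by 1.40 ± 0.13, as had Cmas, which activates sialic acid, by 2.80 ± 0.26. Siae, a sialic acid esterase, fell by 1.79 ± 0.50 there, with 4.10, 5.53 and 0.410 TPM in the 3 libraries. Its rise in PCs against NP+ B cells (1.50, adjusted p = 0.027) led to 7.02 to 8.70 TPM, below the 8.85 to 11.1 of naive cells. The 1 gene that fell in PCs was Sema4d, the ligand of CD72, at 130 to 142 TPM in naive cells and 23.7 to 34.7 in PCs (log2 change -2.30).

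Of 9 listed partners of CD45 and other tyrosine phosphatases, 7 were tested, and in NP+ B cells 0 of the 7 passed (median 0.16). By adjusted p alone, 2 of the 7 were higher and 1 lower there (Ptpn1, Ptpn2 and Ptprcap), each under 2-fold. Of all genes tested, 42.1% passed in this way (18.6% higher, 23.5% lower). In PCs 1 rose and 4 fell in each comparison (medians -1.01 and -1.28). With median-of-ratios scaling 3 fell against naive cells and 2 fell against NP+ B cells (medians -0.52 and -0.90), and on the scale that includes Ig genes 6 fell in each (medians -2.22 and -2.48). Ptprj, the phosphatase CD148, fell by 3.27 against naive cells, from 13.1 to 15.3 TPM to 0.689 to 1.30, and Ptpn1 fell by 2.05. The gene that rose was Hnrnpll, a splicing regulator of CD45 exons, from 0.707 to 0.968 TPM in naive cells and 0.705 to 1.86 in NP+ B cells to 9.19 to 11.6 in PCs (log2 change 3.02 against naive cells, adjusted p = 5.8e-06).

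**Figure D4:**
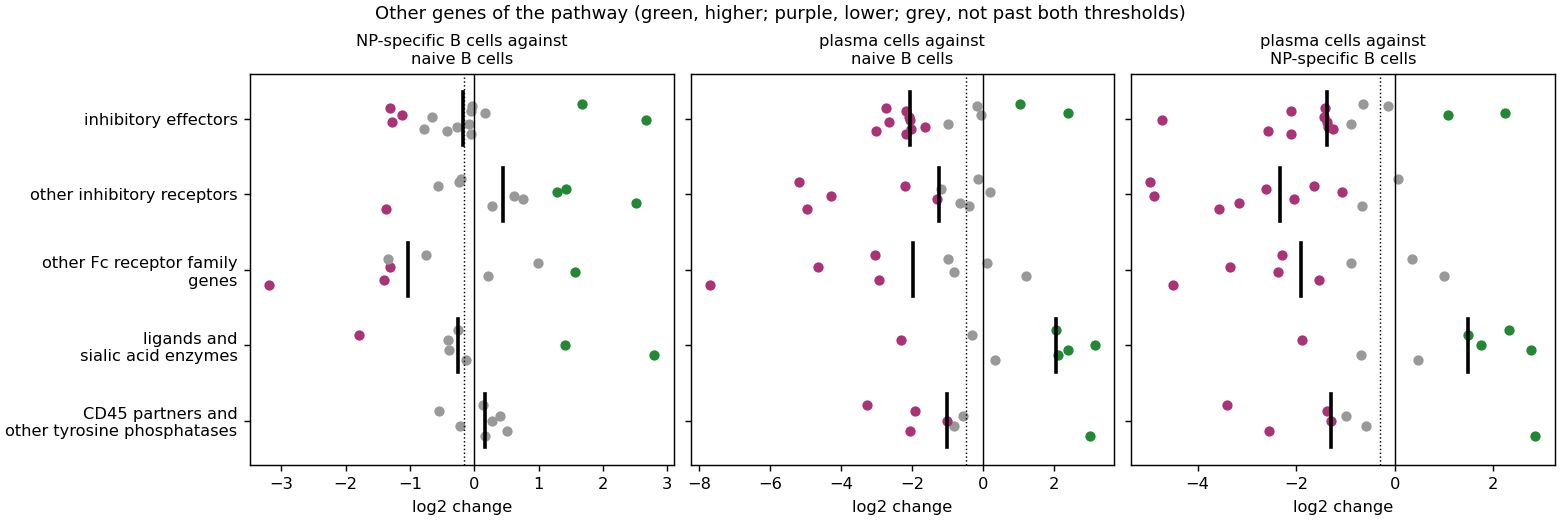
Log2 change of the tested genes of 5 related lists in the 3 comparisons, with one point per gene, the list's median as a bar and the median of all genes tested as a dotted line. In PCs the points of the receptor and effector lists lie mostly below 0, while 4 of the 7 ligand and sialic acid genes lie above 2-fold in each comparison. They are not the same 4 in both, as Cmas does so only against naive cells and Siae only against NP+ B cells.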

How the data were processed

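RNA-seq was analysed for 9 libraries in 3 sorted groups, assigned from the labels. The deposited TPM values were made by the authors with kallisto, with transcripts summed per gene symbol (build mm10 in the submitters' processing notes, annotation not given in the sources used here). The authors also deposited log2 values, obtained with voom from the same estimates, and estimated reads per gene were recovered from them through the value shared by all genes at 0. Both came with and without Ig genes, and the table without Ig genes was used. The ratio of reads to TPM was constant for each gene, so isoforms are not resolved. Which of the sequencers used read which library was not stated.

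The 12892 genes that reached a TPM of 1 in 3 or more libraries were fitted as TPM values with limma 3.58.1 (R 4.3.3) after voom with an offset of 0.5, as one model of 3 group means without a block, in the manner of the study. Fold changes are on the log2(TPM + 0.5) scale, which understates low genes. P-values were adjusted by Benjamini-Hochberg over all genes tested, and calls needed an adjusted p under 0.05 and a fold change over 2. Intervals are 95%. The floor of 3 reads covers counting error only. The test was checked on simulated data without a shift of all genes between groups, so the check does not cover the effect of scaling. No file was left out.

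Named genes were the 10 members, up to 3 called genes with the largest change per list and comparison, marker genes, and the 2 genes with the highest Pearson r to each member. The members, lists, markers and tests were chosen with earlier results of these data known. A few symbols differ in the tables (Faim3 for Fcmr, Hnrnpll for Hnrpll, Lilrb4 for Lilrb4a). Gene positions are from GENCODE (GRCm38), and upstream sequences from RefSeq (GRCm38.p6). Alternatives were the table with Ig genes, other filters, scalings and offsets, the authors' log2 values, estimated reads, a replicate block, and leaving out each library.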

Additional observations from a re-analysis of the deposited data

How the results depend on the processing

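Over 20 alternatives, 194 of 200 values of the 10 members in NP+ B cells against naive cells kept their direction and their call (adjusted p under 0.05 together with a fold over 2), as did 196 of 200 in PCs against naive cells and 199 of 200 in PCs against NP+ B cells. The adjusted p alone crossed 0.05 in 7, 2 and 1 of them. In NP+ B cells these were values of Cd22 (up to 0.13), Cd72 (down to 0.011) and Siglecg (0.00224 with quantile normalization), and in PCs those of Fcgr2b and Fcrla with median-of-ratios scaling. Some alternatives can hardly move a log2 change, because they leave the values of both compared groups as they were. These are the other filters, the fit of only the libraries compared, and leaving out a library of the group not compared. Such values keep their direction by construction, so the counts out of 200 overstate the agreement. The number of members called was 3, 8 and 9, and ranged over 3, 7 to 10 and 9 to 10. With quantile normalization Fcgr2b was at 0.99, Fcrl1 at -1.07, Fcrla at -0.24 and Ptprc at -0.11 in NP+ B cells against naive cells. In that comparison, leaving out 1 library at a time gave -0.0324 (without NP+ B cell replicate 3) to 0.10 for Fcrla and -0.0315 (without naive replicate 1) to 0.13 for Ptprc. With median-of-ratios scaling Fcrla was at 0.0595 and Ptprc at -0.98 in PCs against naive cells. With Ig genes Fcgr2b was at -1.76 and Fcrla at -1.65 there, and Fcrla was at -1.68 against NP+ B cells.

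Genes called in NP+ B cells against naive cells numbered 2388, and 1179 with a mean TPM of at least 10. In PCs against naive cells there were 4870, 8494 with Ig genes and 2965 with a mean TPM of at least 10. In PCs against NP+ B cells there were 4150, 7775 and 2640. Leaving out 1 library at a time gave 2039 to 2600, 4588 to 4883 and 3926 to 4347. Fewer genes are tested under the stricter filter, and Ig genes set the scale of the other table. Higher and lower calls split as 1048 and 1340, 1473 and 3397, and 1280 and 2870 in the order above. With median-of-ratios scaling they split as 1258 and 1022, 2349 and 1814, and 2023 and 1788, and with quantile normalization as 1157 and 976, 2063 and 2047, and 1795 and 1843. The median of all genes moved by 0.11, 0.49 and 0.38 with median-of-ratios scaling, by 0.08, 0.40 and 0.30 with quantile normalization, and by -0.93 and -0.97 with Ig genes in PCs. Same-numbered libraries deviated with r between -0.0749 and 0.0675 over genes, and libraries of different numbers with r between -0.0865 and 0.0724. With 3 libraries per group such values cannot tell whether a number marks a mouse. The numbers were not taken as pairs, because the labels do not say what they mark. With a replicate block, 2453, 4898 and 4238 genes and 3, 8 and 9 members were called.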
